A study of Mus musculus with 40 samples.

Results

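Brown adipose tissue was compared between 5 saline-injected and 5 uninjected male mice on chow, 10 of the 40 libraries of the series, over all 20295 genes of the count table. These are the control groups of the study's 2 arms, chosen by their labels. The question the comparison answers is how alike the baselines are: what thermoneutral brown fat expresses most in both, and what differs between them. All 10 mice were housed at 29 ± 1 °C after 2 to 3 weeks of acclimation.

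The uninjected controls were littermates of C-3BO mice, in which a Cre driven by the Ucp1 promoter turns on extra Gpr3, and they carried either the Gpr3 TTG allele or the Cre but not both. They were 13 to 19 weeks old. The saline mice, labelled Wildtype, were littermates of I-3BO mice, which have a tamoxifen-inducible Ucp1-CreERT2 in place of that Cre, and they too carried only one of the 2 parts. They were 15 weeks old and received 10 µL of saline per g of body weight on 9 consecutive days, with tissue taken the day after. Injection, breeding cohort, age and dissection therefore cannot be told apart in any difference below. Which mouse carried which allele, whether saline mice had tamoxifen and whether the 5 tissues of a group were taken on 1 day are not given in the sources used here.

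Brown fat burns fatty acids and glucose to make heat, through uncoupling protein 1 in the inner mitochondrial membrane, under noradrenaline that acts on β-adrenergic receptors. Near thermoneutrality this drive is low, and brown adipocytes store lipid and make new fatty acids. The depot between the shoulder blades lies against skeletal muscle and white fat, so that a dissected piece can hold fibres and cells of both.

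Library totals ran from 7453294 to 14193478 counts, and 3 counts, the limit that a count of 0 allows, corresponded to 0.209 to 0.400 CPM, the counts scaled to a common library total. Here that total was the effective library size, and this floor covers counting error only. Pairwise Pearson correlations of log2 CPM across 13277 tested genes, which are not independent replicates, were 0.960 to 0.983 within controls, 0.958 to 0.984 within saline mice and 0.923 to 0.977 between the groups.

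The targeted gene of the series, Gpr3, a receptor that signals through cAMP without a ligand, had 1 to 9 counts in each control and 1 or 2 in each saline mouse. Both groups were near the floor, so no fold is given. Alb, a liver transcript, had at most 9 counts in any of the 10 libraries. Lcn8, an epididymal transcript, had 0 counts in all 10. Ucp1 and Cidea, which define brown fat, were among the abundant transcripts of every mouse, from 1116 CPM for Ucp1 and from 1691 CPM for Cidea. The labels name each sample as a separate one and do not say more, so p-values measure the spread between these samples.

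Both baselines were led by the same transcripts. Scd1, the desaturase that makes monounsaturated fatty acids, was the top gene in every library with 3.18 to 13.4% of all counts. Per kb of exon, the scale on which levels can be compared between genes, Scd1 had 14935 CPM per kb in controls and 13333 in saline mice. Fabp4, the fatty acid carrier of adipocytes, came second in both groups, at 10300 and 11597 CPM per kb. Among the next in order were Atp5b and Cox6a1 (ATP synthase and cytochrome oxidase), Car3, Thrsp, Aldoa, Fasn, Gpx3, Fth1, Gpd1, Cox8b, Cox4i1 and Uqcrq. This is a mix of fatty acid synthesis (Scd1, Thrsp, Fasn), glycerol supply (Gpd1) and the respiratory chain. The leading 15 of each group shared 12 genes and the leading 100 shared 87, and the group means correlated at r = 0.977 across the 13277 genes on the log2 scale.

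**Figure D1:**
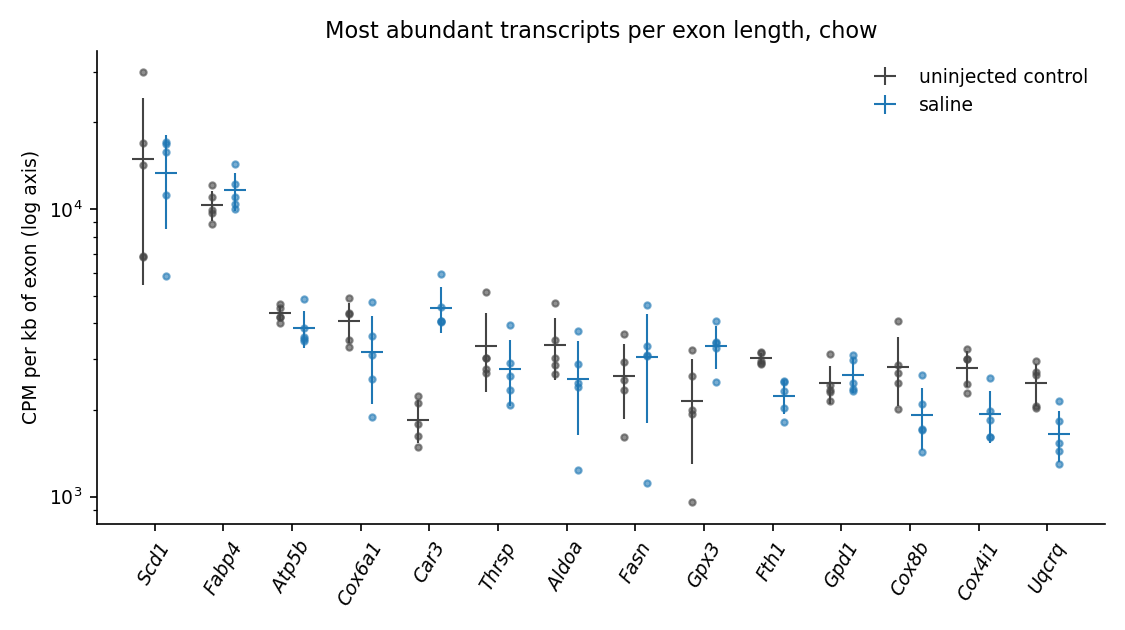
CPM per kb of exon (log axis) of 14 of the 15 most abundant transcripts over both chow groups, with 1 point per mouse (n = 5 a group), the mean as a horizontal dash and the SD as a bar. The groups overlap for every gene shown but Car3, at 1850 against 4536 CPM per kb, and Fth1, at 3022 against 2238.

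Scd1 also varied widely among mice of 1 group. It stood at 81785, 144564, 33151, 32905 and 68795 CPM in control mice 1 to 5, and at 76320, 28219, 81246, 82624 and 54047 CPM in saline mice 1 to 5. The groups overlapped throughout, with a log2 fold change of -0.16 ± 0.36 (SE, saline minus control, edgeR, adjusted p = 0.814). Fasn, the fatty acid synthase, ran from 16027 to 36672 CPM in controls and from 11119 to 46193 CPM in saline mice (log2 fold change 0.22 ± 0.47, edgeR adjusted p = 0.805). Of the 24 genes of the lipogenesis list none passed the call used here, an edgeR adjusted p under 0.05 with a log2 fold change past 1 in size. By adjusted p alone, 1 was higher and 1 lower (6.66% and 8.56% over all genes). The list's median log2 fold change was -0.01, equal to the -0.01 of all tested genes.

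Of the heat-producing genes, few passed the fold threshold. Ucp1 was at 1149, 1297, 1257, 1378 and 1116 CPM in control mice 1 to 5. In saline mice 1 to 5 it was at 1866, 1732, 1268, 1691 and 1776 CPM. The ranges overlapped only through saline mouse 3, and the log2 fold change of 0.43 ± 0.26 did not pass the test (edgeR adjusted p = 0.291). Fitted on the 10 libraries alone, the same gene passed at 0.45 (edgeR adjusted p = 0.0393). Per kb, Ucp1 ranked 79th of all genes in controls and 45th in saline mice.

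Of the 27 tested thermogenic genes 1 was called lower, Elovl3, and none higher (2.63% and 0.972% over all genes), with a list median of -0.05. By adjusted p alone 1 member was higher (Adrb3) and 6 were lower (Elovl3, Cox7a1, Esrrg, Fabp3, Cox8b and Cidea), against 6.66% higher and 8.56% lower over all genes. These counts depended on the fit. With the 10 libraries alone 3 were higher and 3 lower, and without saline mouse 1 they were 0 and 4. Under the skeletal muscle covariate described below they were 0 and 4 too. Without saline mice 2 and 3 together, 3 were higher, 1 of them called, and 4 lower. Dio2, the deiodinase that makes active thyroid hormone, stood at 10.2 to 31.4 CPM in controls. It was at 9.03 to 19.4 CPM in saline mice 2 to 5 and at 85.4 CPM in saline mouse 1 (log2 fold change 0.34 ± 0.44, edgeR adjusted p = 0.667). The sign of the Dio2 difference rested on that mouse, since the log2 fold change was -0.58 without saline mouse 1. Cidea, a lipid droplet protein, was at 2599 ± 321 CPM (SD, n = 5) in controls and 1951 ± 403 in saline mice, with overlap through saline mouse 5. Its log2 fold change was -0.41 ± 0.13 (edgeR adjusted p = 0.0295), and it no longer passed without any one of saline mice 1 to 4 or of controls 3 and 4 (adjusted p = 0.0614 to 0.105). Cox7a1, a muscle and brown fat subunit of cytochrome oxidase, was at 336 ± 71.1 CPM in controls and 201 ± 33.1 in saline mice (log2 fold change -0.74 ± 0.15, edgeR adjusted p = 0.000766).

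Elovl3, the elongase of very long fatty acids and a gene known to rise with cold, was the 1 called member. The gene lies on chromosome 19, 46206389 to 46210184 (mm9). Control mice 1 to 5 had 31.5, 39.6, 37.0, 19.6 and 28.2 CPM. In saline mice 1 to 5 it was at 7.68, 0.334, 2.77, 6.70 and 8.08 CPM. No saline mouse reached the lowest control, and the log2 fold change was -2.59 ± 0.44 (edgeR adjusted p = 0.000134).

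Across all genes, 129 were called higher in saline mice, 0.972% of those tested, and 349 lower, 2.63%. By adjusted p alone 884 were higher (6.66%) and 1137 lower (8.56%). Ranges of the 2 groups did not overlap for 506 tested genes above (3.81%) and 475 below (3.58%). Among the called genes, 71 of the 129 higher and 84 of the 349 lower did not overlap, and the other 58 and 265 did.

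**Figure D2:**
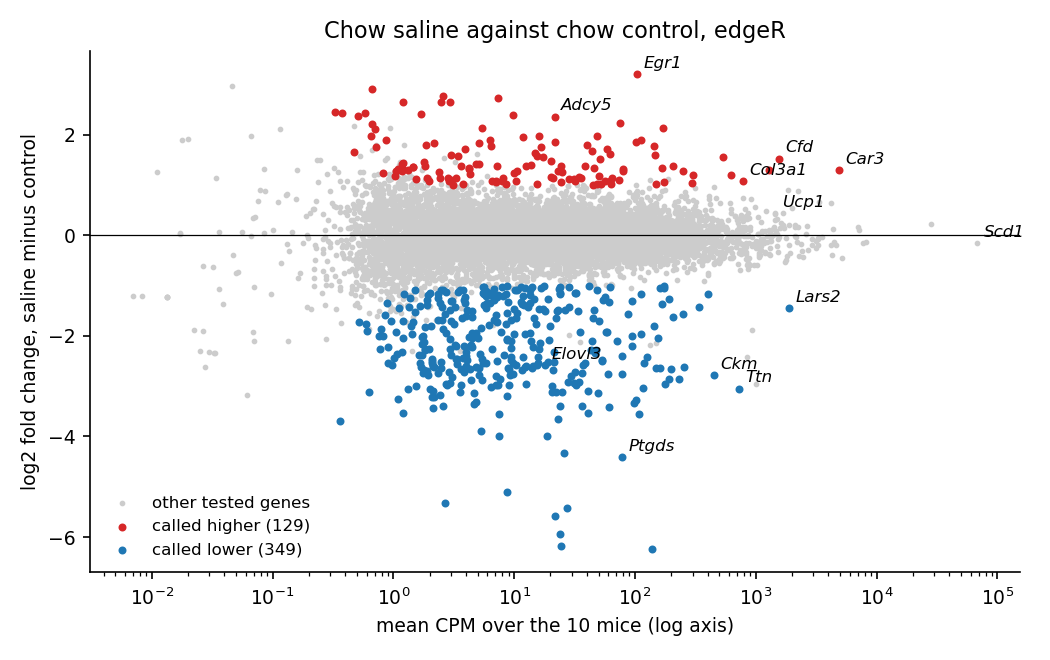
log2 fold change (saline minus control, edgeR) against the mean CPM over the 10 mice (log axis) for each tested gene with a count in these mice. Red points are the 129 genes called higher and blue points the 349 called lower. Scd1 and Ucp1 lie near 0 at the right, while Car3 and Cfd are the most abundant genes called higher and Lars2 the most abundant called lower.

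The largest block of lower calls was skeletal muscle. Of the 29 muscle markers tested, 24 were called lower and none higher, against 2.63% lower over all genes, with a list median of -2.78. Their summed level was 1502, 8997, 16824, 16757 and 14271 CPM in control mice 1 to 5. In saline mice 1 to 5 it was 4495, 160, 87.8, 1914 and 2949 CPM. Control mouse 1 thus lay below 3 of the 5 saline mice, and the other 4 controls lay above all 5. In bulk tissue, fewer cells of a type and less RNA per cell cannot be told apart.

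Single muscle genes followed the same order of mice. Ckm, the muscle creatine kinase, was at 91.9, 493, 1355, 1163 and 809 CPM in control mice 1 to 5. It was at 254, 4.90, 1.16, 122 and 188 CPM in saline mice 1 to 5. The log2 fold change was -2.78 ± 0.94 (edgeR adjusted p = 0.0386), with saline mice 1, 4 and 5 above control mouse 1. Ttn, the giant spring protein of the sarcomere, gave -3.05 ± 0.99 (adjusted p = 0.0306) and Tnnt3, the fast-fibre troponin T, -2.62 ± 0.89 (adjusted p = 0.0405).

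Acta1, the skeletal α-actin, stood at 1793 ± 1060 CPM in controls and 231 ± 229 in saline mice and missed the threshold (log2 fold change -2.95 ± 1.09, adjusted p = 0.0603). Myh4, the fastest myosin heavy chain, missed it as well (-1.89 ± 1.05, adjusted p = 0.236). Ckmt2, the muscle mitochondrial creatine kinase, was at 66.3 ± 41.7 CPM in controls and 6.32 ± 7.51 in saline mice (-3.40 ± 0.75, edgeR adjusted p = 0.0019). Rpl3l, a ribosomal protein of striated muscle, was the 1 gene called in the cytosolic ribosome list, at 3.72 to 39.1 CPM in controls and 0.895 to 9.51 in saline mice.

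The count of muscle calls depended on single mice and on the fit. It was 14 without saline mouse 2, 15 without control mouse 3, and 16 without saline mouse 3 or control mouse 4. With no mouse left out it was 14 in DESeq2 and 18 with the replicate number as a block. It was 10 when the 10 libraries alone were fitted. The median stayed between -2.43 and -3.40 in every fit that left out 1 mouse. Without any one of saline mice 2 to 4 or controls 3 to 5, Ckm and Tnnt3 missed the threshold in edgeR, at adjusted p = 0.0517 to 0.103, and Ttn missed it too.

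Many of the 349 lower genes moved with the muscle transcripts. Across the 10 mice, which share the group difference, the median Pearson correlation of a lower gene with the muscle score (mean log2 of CPM + 0.5 over the list) was 0.90, and that of the 129 higher genes was -0.58. Control mouse 1 lay within the range of the saline mice for 238 of the 349, and the other 4 controls lay above every saline mouse for 309. All 349 were called on these same 10 mice, which favours this order, and no share over all genes was computed. Of them, 24 are themselves members of the muscle list behind the score. With the muscle score as a covariate, an alternative chosen after seeing the data that takes up part of the group difference itself, 89 genes were lower, of which 63 were among the 349, and 105 were higher, of which 73 were among the 129. Respiratory genes, matrix genes and immediate early genes are set beside this fit below.

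Among the 14 largest falls whose groups did not overlap, several are also genes of striated muscle. Vgll2, a muscle cofactor of transcription, had 7, 33, 63, 130 and 48 counts in control mice 1 to 5 and 4, 0, 0, 1 and 1 counts in saline mice. Fndc5, the membrane precursor of irisin, was at 2.23 to 21.4 CPM in controls and 0.557 to 1.62 in saline mice (log2 fold change -3.56 ± 0.66, edgeR adjusted p = 0.000339). Kcna7, a potassium channel of muscle, was at 5.79 to 32.6 CPM in controls and 0.780 to 5.73 in saline mice. Of these values, the lowest control was always mouse 1, the control with the least muscle RNA.

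Ankrd23, a titin-binding protein, was at 48.2 to 191 CPM in controls and 19.8 to 35.1 in saline mice (-2.40 ± 0.32, edgeR adjusted p = 2.89e-06). Casq2, the calcium store protein of cardiac and slow muscle, was at 6.94 to 23.2 CPM in controls and 1.93 to 5.24 in saline mice. Slc38a3, a glutamine transporter, and Ramp1, a partner of the CGRP receptor, fell by 2.54 and 2.78 on the log2 scale (edgeR adjusted p = 0.00199 and 6.84e-05). Under the muscle covariate Kcna7 (adjusted p = 0.282), Slc38a3 (0.159) and Ramp1 (0.0605) no longer passed in edgeR. Ankrd23, Casq2, Vgll2 and Fndc5 still did.

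**Figure D3:**
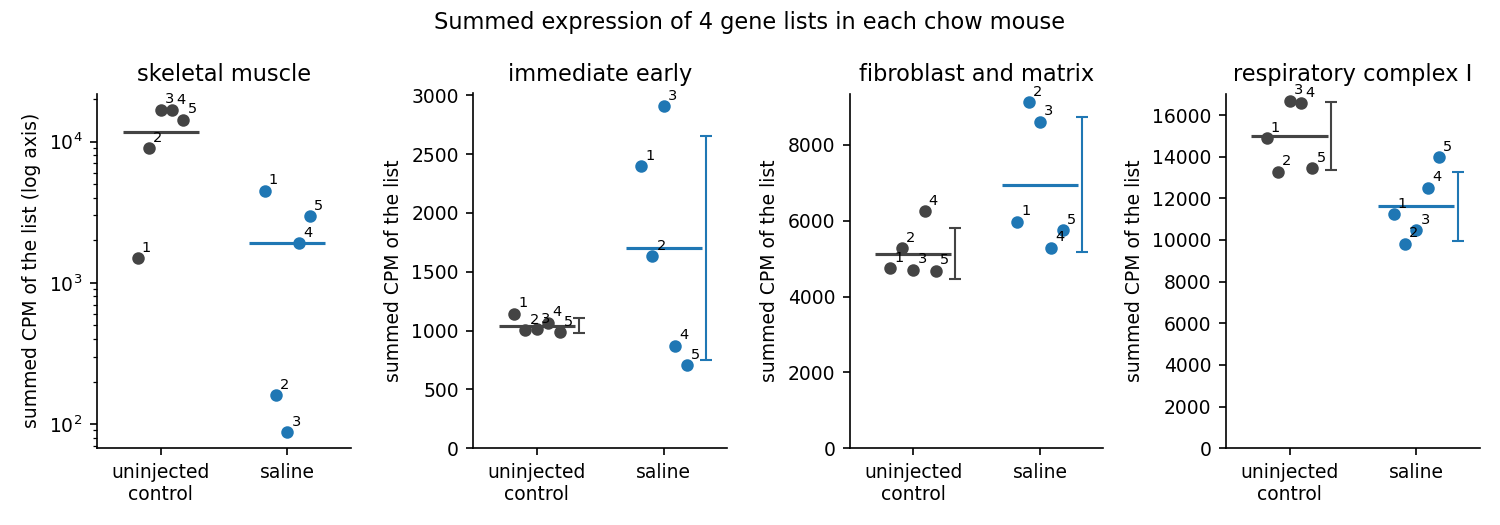
Summed CPM of 4 gene lists in each mouse, numbered 1 to 5 in each group, with the group mean as a line and, except for skeletal muscle on its log axis, the SD as a bar beside it. Muscle is lowest in saline mice 2 and 3, which hold the highest matrix sums, and immediate early genes are high in saline mice 1 to 3 only.

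Other genes were lower without muscle being their known site. Ptgds, the prostaglandin D2 synthase, lies on chromosome 2, 25322232 to 25325269 (mm9). Control mice 1 to 5 had 211, 326, 38.6, 44.3 and 125 CPM. Saline mice 1 to 5 had 7.24, 5.57, 8.86, 7.21 and 5.96 CPM. The lowest control was above 4 times the highest saline mouse, and the log2 fold change was -4.41 ± 0.41 (edgeR adjusted p = 4.7e-09). C-3BO littermates of the controls, also uninjected and on chow, had 3.21 to 5.56 CPM, and Wildtype mice given the β3 agonist CL316,243 instead of saline (CL mice) had 9.76 to 25.9.

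Slc16a4, a monocarboxylate transporter family member, was at 2.35 to 8.71 CPM in controls and 0.649 to 1.23 in saline mice (-2.55 ± 0.35, edgeR adjusted p = 4.58e-06). Aldoc, the aldolase of brain, was at 6.95 to 19.5 CPM in controls and 1.42 to 5.19 in saline mice (-1.92 ± 0.34, adjusted p = 0.000192, edgeR). Fam131c, a gene of unknown role, was at 3.24 to 9.29 CPM in controls and 0.324 to 2.38 in saline mice.

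Zbed6, a repressor of transcription derived from a transposon, and Lnpep, the insulin-regulated aminopeptidase, were lower in saline mice as well. Zbed6 was at 73.6, 103, 34.7, 76.7 and 105 CPM in control mice 1 to 5. It was at 25.4, 20.6, 11.6, 9.74 and 13.3 CPM in saline mice 1 to 5, a log2 fold change of -2.29 ± 0.30 (edgeR adjusted p = 2.89e-06). C-3BO mice on chow had 32.3 to 68.3 CPM, and CL mice had 6.56 to 31.2. Zbed6 (chromosome 1, 135552456 to 135557462, mm9) lies within Zc3h11a on the same strand, so their reads cannot be told apart by strand. Zc3h11a itself was at 148 to 189 CPM in controls and 121 to 155 in saline mice (-0.19 ± 0.09, edgeR adjusted p = 0.165).

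Lnpep was at 42.4 to 126 CPM in controls and 17.9 to 34.1 in saline mice (-1.70 ± 0.20, edgeR adjusted p = 3.68e-07), with 62.9 to 71.7 in C-3BO mice and 17.2 to 28.2 in CL mice. Ago3, a small-RNA-binding Argonaute named here after its values were seen, was at 12.5 to 22.9 CPM in controls and 5.79 to 11.1 in saline mice (-1.18 ± 0.20, edgeR adjusted p = 0.000134). In C-3BO mice Ago3 stood at 14.7 to 23.2 CPM and in CL mice at 6.82 to 8.58.

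Lars2, the mitochondrial leucyl-tRNA synthetase, was the most abundant gene called lower and was also picked after seeing its values. It stood at 1939, 1484, 6658, 1891 and 1841 CPM in control mice 1 to 5 and at 1060, 797, 773, 1017 and 1410 CPM in saline mice. The groups did not overlap, narrowly, and the log2 fold change was -1.45 ± 0.36 (edgeR adjusted p = 0.00476). Control mouse 3 carried much of it, as the value was -0.81 without that mouse (adjusted p = 0.0913).

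Nnt, the mitochondrial transhydrogenase whose gene is partly deleted in the C57BL/6J strain, was at 15.5, 31.7, 47.5, 35.5 and 32.4 CPM in control mice 1 to 5 and at 12.1 to 17.5 CPM in saline mice. Only control mouse 1 lay among the saline mice (log2 fold change -1.03 ± 0.24, edgeR adjusted p = 0.00338). Under the muscle covariate its log2 fold change was -0.60 (edgeR adjusted p = 0.251).

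The most abundant genes called higher in saline mice were Car3 and Cfd, both on the adipocyte list. Car3, a carbonic anhydrase that makes up much of the protein of fat cells, lies on chromosome 3, 14863538 to 14872373 (mm9). It was at 2486, 2279, 2728, 3425 and 3226 CPM in control mice 1 to 5. It was at 6163, 9093, 6231, 6238 and 6954 CPM in saline mice 1 to 5. Every saline mouse exceeded every control, at 2.45 times the mean (log2 fold change 1.29 ± 0.17, edgeR adjusted p = 2.89e-06). Its rank per kb moved from 22nd to 3rd. Cfd, the adipocyte protease adipsin, was at 632, 214, 796, 1540 and 844 CPM in control mice 1 to 5 and at 1704, 2552, 1872, 2085 and 3338 CPM in saline mice (1.52 ± 0.32, edgeR adjusted p = 0.00125), again without overlap.

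These were the 2 genes called higher of the 24 on the adipocyte list, whose median was 0.17, against 0.972% higher over all genes. Both passed the test in every alternative run, the muscle covariate included. None of the 15 tested white-fat-enriched genes was called higher and Npr3 and Ccnd1 were called lower (2.63% over all genes), with a list median of 0.02.

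The 14 largest rises without overlap reached from 1.56 to 2.36 on the log2 scale. Adcy5, an adenylyl cyclase that makes cAMP, was at 10.6, 5.17, 1.90, 8.06 and 9.72 CPM in control mice 1 to 5 and at 40.9, 22.2, 22.5, 30.2 and 66.8 CPM in saline mice (2.36 ± 0.37, edgeR adjusted p = 3.81e-05). Hcar1, the lactate receptor that restrains lipolysis in fat cells, rose from 26.5 ± 9.36 to 124 ± 42.3 CPM (2.23 ± 0.35, adjusted p = 3.81e-05, edgeR). Svep1, a large adhesion protein of the matrix, rose from 64.1 ± 34.0 to 280 ± 74.4 CPM (2.12 ± 0.35, edgeR adjusted p = 7.51e-05). No saline mouse overlapped a control for any of the 3.

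The most certain rises were moderate in size. Zfp36l2, which speeds decay of AU-rich mRNAs, was at 62.1 to 86.5 CPM in controls and 185 to 274 in saline mice (1.58 ± 0.15, edgeR adjusted p = 4.7e-09). Sctr, the secretin receptor, a Gs-coupled receptor of brown fat, was at 7.05 to 8.93 CPM in controls and 21.0 to 27.3 in saline mice (1.57 ± 0.18, adjusted p = 3.68e-07, edgeR). Net1, an exchange factor for RhoA, rose from 65.2 ± 22.5 to 222 ± 40.5 CPM (1.77 ± 0.23, adjusted p = 2.89e-06, edgeR).

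Others of the 14 were Gadd45g, a growth arrest gene (1.85 ± 0.37), B3galt2, a galactosyltransferase (1.61 ± 0.30), Irf4, a transcription factor of lipid handling in brown fat (1.67 ± 0.37), Mycl, a Myc family member (1.56 ± 0.41), Gbp11, an interferon-inducible GTPase (1.70 ± 0.51), Cyp2e1 and Ehhadh. Gbp11 rested on low levels of 1.01 to 2.80 against 2.92 to 9.44 CPM, and without saline mouse 5 its adjusted p was 0.0567. On the interferon list, which does not hold Gbp11, 0 of 30 were called in edgeR, none passed by adjusted p alone, and the median was -0.00.

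**Figure D4:**
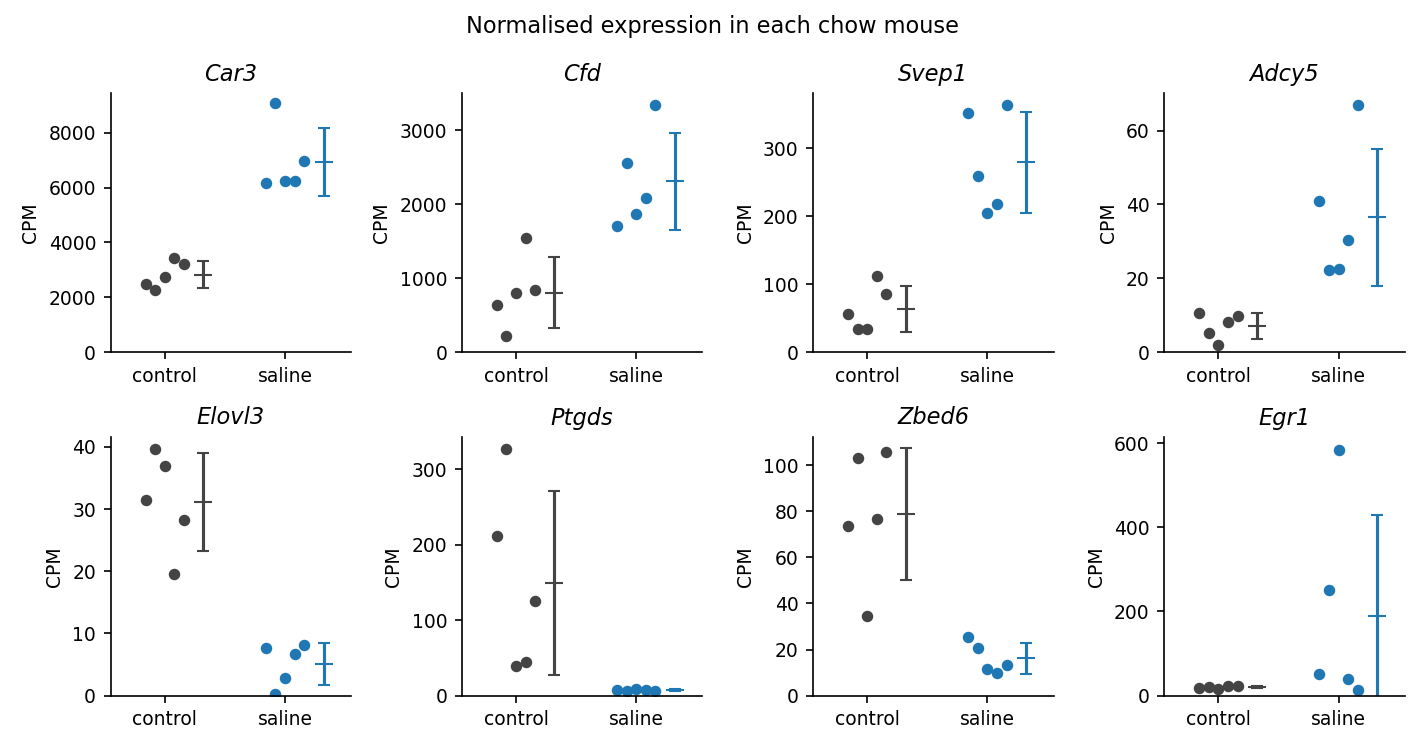
CPM of 8 genes in each mouse (n = 5 a group), with the mean as a dash and the SD as a bar at the right of each group (the bar of Egr1 in saline mice runs below the axis). The groups do not overlap for any gene but Egr1, where saline mouse 5 lies below all controls.

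Some genes of fasting and of fatty acid oxidation under the receptor PPARα were higher as well. Of 21 tested, 4 were called higher (0.972% over all genes), among them Ehhadh, G0s2 and Irs2. By adjusted p alone 6 were higher (6.66% over all genes), none was lower and 15 did not pass, with a list median of 0.50. Ehhadh, the bifunctional enzyme of peroxisomal β-oxidation, was at 36.8 to 49.1 CPM in controls and 73.4 to 248 in saline mice (1.85 ± 0.51, edgeR adjusted p = 0.0113). The groups did not overlap.

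G0s2, the inhibitor of adipose triglyceride lipase, overlapped between groups at 38.0 to 168 and 114 to 384 CPM (1.34 ± 0.32, edgeR adjusted p = 0.00411). Irs2, an insulin receptor substrate, was at 257 CPM in saline mouse 1 and at 30.9 to 68.3 CPM in the other 4, with 6.83 to 37.6 in controls. Its log2 fold change of 1.71 ± 0.43 (edgeR adjusted p = 0.0053) dropped to 0.82 without saline mouse 1 (adjusted p = 0.127). Pdk4, the kinase that shuts pyruvate out of the citric acid cycle, and Foxo1 passed by adjusted p alone, at 0.87 ± 0.29 and 0.50 ± 0.11 (edgeR adjusted p = 0.038 and 0.00169). Pdk4 no longer passed without saline mouse 1 or 3 or without control mouse 1, 3 or 5, at adjusted p = 0.0578 to 0.118.

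Cyp2e1, a cytochrome of ketone and ethanol oxidation, was the 1 gene called higher of 18 tested on the liver list, at 26.0 to 68.5 CPM in controls and 94.997 to 399 in saline mice (1.88 ± 0.40, edgeR adjusted p = 0.00152). The list median was 0.02, and over all genes 0.972% were called higher. The defining liver marker Alb was near the floor in both groups, as given above.

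Some receptors for noradrenaline were higher in saline mice. Adrb3, the β3 receptor of fat cells, was at 246 ± 38.4 CPM in controls and 391 ± 85.6 in saline mice (0.67 ± 0.21, edgeR adjusted p = 0.0253), and did not pass without control mouse 3 or saline mouse 1 or 4 (adjusted p = 0.0523 to 0.0867). Adrb1 and Adra1a passed by adjusted p alone, at 0.88 ± 0.20 and 0.99 ± 0.26 (edgeR adjusted p = 0.00296 and 0.00841).

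On the whole β-adrenergic and cAMP list, 1 of 17 was called higher and none lower (0.972% and 2.63% over all genes). By adjusted p alone 5 were higher and 1 lower (6.66% and 8.56% over all genes), with a median of 0.11. Under the muscle covariate 2 of the list were higher by adjusted p alone and the median was 0.14.

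Immediate early genes, which turn on within minutes of a signal and of handling, were high in some saline mice only. Of 28 tested, 10 were called higher against 0.972% over all genes, none was lower, and the median was 0.96. None of them separated the groups fully. Egr1, a zinc-finger factor, was at 18.8, 19.96, 16.6, 23.6 and 23.8 CPM in control mice 1 to 5. In saline mice 1 to 5 it was at 51.8, 252, 583, 40.3 and 14.04 CPM, so that saline mouse 5 lay under every control (3.19 ± 0.68, edgeR adjusted p = 0.00135). Fos, the AP-1 subunit, was at 1.62 to 3.89 CPM in controls and at 9.41, 9.36, 59.0, 2.44 and 1.87 CPM in saline mice 1 to 5 (2.39 ± 0.73, edgeR adjusted p = 0.021).

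The summed level of the list was 985 to 1143 CPM in controls and 2397, 1632, 2905, 872 and 704 CPM in saline mice 1 to 5. Saline mice 1 to 3 lay above all controls and saline mice 4 and 5 below all of them. Without saline mouse 3 the 10 calls became 4 and the log2 fold change of Fos 0.88 (edgeR adjusted p = 0.416). The calls were 17 without saline mouse 5, 6 with the replicate number as a block and 4 when the 10 libraries alone were fitted. Leaving out saline mice 2 and 3 together, also chosen after seeing the data, left 3 calls, and the muscle covariate 3 too. Among these 3 saline mice, mouse 1 had the most muscle RNA of its group and mice 2 and 3 the least.

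Zfp36, another decay factor of AU-rich mRNAs, and Btg2, an antiproliferative gene, were among the 10, at 37.2 to 48.0 against 41.9 to 178 CPM (1.14 ± 0.25, edgeR adjusted p = 0.00188) and 31.1 to 49.7 against 36.1 to 177 CPM (1.02 ± 0.25, edgeR adjusted p = 0.00452). Junb was a further member, at 27.6 to 51.9 against 34.2 to 173 CPM. Without saline mouse 3, Btg2 (adjusted p = 0.059) and Junb (adjusted p = 0.255) no longer passed in edgeR. Junb also missed the threshold without control mouse 3 or 5 (adjusted p = 0.0609 and 0.0563).

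Both the immediate early genes and the muscle genes hold classic targets of serum response factor, which binds the CArG box. Promoters from 250 bases before to 50 after each RefSeq start (GRCm38.p6, a later build than the mm9 of the counts) were searched for that box, whose pattern reads the same on both strands. It was found for 2 of 22 immediate early genes with a promoter (Zfp36 and Egr2), for 2 of 25 muscle genes (Acta1 and Myh4) and for 1.66% of 10583 tested genes. The windows below hold 10 bases on either side of the box, which is in capitals, and are shown because both lists hold genes with it.
Zfp36: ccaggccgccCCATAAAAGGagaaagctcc
Egr2: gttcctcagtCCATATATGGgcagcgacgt
Acta1: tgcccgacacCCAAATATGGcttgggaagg
Myh4: aaagagattgCCAAAAATGGttttgccaag
They lie at chr7:28379267-28379296 (minus strand), chr10:67537787-67537816 (plus), chr8:123894829-123894858 (minus) and chr11:67237698-67237727 (plus). Of the 4, Zfp36 was the 1 gene called, and Egr2 and Myh4 were picked after their values were seen. Egr2, at 0.413 to 2.58 CPM in controls and 0.766 to 8.68 in saline mice, gave 1.53 ± 0.56 (edgeR adjusted p = 0.0566). A match describes these letters and is no evidence of binding.

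Part of the connective tissue genes was higher in saline mice. Of 28 fibroblast and matrix genes 5 were called higher (0.972% over all genes), and 13 were higher by adjusted p alone (6.66% over all genes). None was lower, 15 did not pass, and the median was 0.46. Col6a3, a chain of the collagen that ensheathes fat cells, was at 100.7, 104, 124, 132 and 111 CPM in control mice 1 to 5 and at 254, 411, 372, 203 and 240 CPM in saline mice without overlap (1.38 ± 0.18, edgeR adjusted p = 2.04e-06). Col3a1 was at 351, 415, 492, 835 and 458 CPM in control mice 1 to 5 and at 796, 1679, 1454, 632 and 790 CPM in saline mice, with control mouse 4 among the saline values (1.07 ± 0.27, edgeR adjusted p = 0.00652). Col1a1 gave 1.20 ± 0.29 (edgeR adjusted p = 0.00469).

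Saline mice 2 and 3, which hold the least muscle RNA, had the highest collagen. Their list sums were 9121 and 8616 CPM, against 5288 to 5972 in the other 3 saline mice and 4685 to 6251 in controls. The summed level of the macrophage list was also high in these 2 mice, at 523 and 563 CPM, against 269 to 287 in the other 3 saline mice and 270 to 431 in controls, and its part in the collagen values was not tested. Of the 21 tested macrophage genes none was called higher and 1 lower (0.972% and 2.63% over all genes). Leaving out saline mouse 3 alone left 2 calls and saline mouse 2 alone 3, while leaving out saline mouse 4 gave 8. Without mice 2 and 3 together, 3 of the 28 passed by adjusted p alone, and with the muscle covariate 2 did. Gsn, the actin-severing gelsolin, picked after seeing its values, was at 500 to 973 CPM in controls and 1286 to 2432 in saline mice (1.30 ± 0.20, edgeR adjusted p = 3.86e-05). Vwf, von Willebrand factor, was the 1 called gene of 16 endothelial markers, at 15.1 to 23.8 CPM in controls and 33.5 to 60.9 in saline mice. Over all genes 0.972% were called higher, and the median of the endothelial list was 0.01.

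Many respiratory chain genes were lower in saline mice by less than the fold threshold. Of 37 tested subunit genes on the complex I list none passed the fold threshold, but 29 were lower by adjusted p alone against 8.56% over all genes, and the median was -0.40. Ndufa9 was at 497 to 594 CPM in controls and 293 to 441 in saline mice without overlap (-0.58 ± 0.11, edgeR adjusted p = 0.00029). Ndufv1, which binds NADH, was at 1466 ± 112 CPM in controls and 1124 ± 217 in saline mice (-0.38 ± 0.11, edgeR adjusted p = 0.0121). Ndufv1 missed the threshold without saline mouse 2 or 3 (adjusted p = 0.0555 and 0.0522).

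Summed, the complex I list was at 14896, 13276, 16690, 16558 and 13444 CPM in control mice 1 to 5 and at 11251, 9829, 10460, 12514 and 13980 CPM in saline mice 1 to 5. Saline mouse 5 lay above 2 controls, and the other 4 saline mice below all of them. Of 38 genes of complexes III to V, 23 were lower by adjusted p alone, with a median of -0.39. Cox5b (270 ± 41.4 against 170 ± 16.9 CPM, -0.66 ± 0.12, edgeR adjusted p = 0.000266) and Uqcrc1 (2077 ± 141 against 1467 ± 164 CPM, -0.50 ± 0.09, edgeR adjusted p = 0.000422) did not overlap between groups. The 1 gene past the fold threshold was Atp5g1, at 1.24 to 4.48 CPM in controls and 0 to 0.865 in saline mice, a subunit gene with close copies whose reads may be shared.

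These counts turned on few mice and on the fit. The 29 complex I genes became 13 without saline mouse 2, control mouse 3 or control mouse 4, 17 without saline mouse 3, and 1 with the 10 libraries alone or with the muscle covariate, where the medians were -0.37 and -0.33. The 23 of complexes III to V became 14 without saline mouse 2, 15 without control mouse 3 or 4, 10 with the 10 libraries alone and 5 with the muscle covariate. Without saline mice 2 and 3 together the counts were 3 for complex I and 6 for complexes III to V. The 2656 tested genes with exons of up to 1589 bases had a median of -0.17 and 15.8% lower by adjusted p alone, while the 2656 of 4657 bases or more had a median of 0.06 and 7.34% lower. Of the complex I genes, 33 lay in that shortest class, with a median of -0.43. The part of exon length in the respiratory result was not tested. Genes of the cytosolic ribosome, 68 of 74 in the same class, had a median of -0.07 there. The median in that class was -0.26 for the mitochondrial ribosome (57 of 74) and -0.12 for the proteasome (27 of 37).

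Some genes of cholesterol synthesis were lower. Of 23 tested genes 1 was called lower, Sqle, the squalene epoxidase, and 8 were lower by adjusted p alone, against 2.63% and 8.56% over all genes, with a median of -0.33. Sqle was at 19.8 to 40.6 CPM in controls and 8.08 to 20.8 in saline mice (-1.14 ± 0.23, edgeR adjusted p = 0.000741). Insig1, the sterol sensor, was at 339 to 730 CPM in controls and 186 to 445 in saline mice (-0.80 ± 0.23, edgeR adjusted p = 0.0134), and missed the threshold without control mouse 2 or saline mouse 2 or 5. The 8 became 2 without control mouse 2, 3 without saline mouse 2 or 5, 4 without control mouse 3 or 5, and 1 with the muscle covariate. Without saline mouse 5 or under that covariate no member was called.

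Glucocorticoid targets, which rise with stress hormone, were higher in part. On the glucocorticoid list 2 of 24 were called higher and 8 by adjusted p alone, against 0.972% and 6.66% over all genes, with a median of 0.39. Mt2, a metallothionein, was at 10.3 to 22.2 CPM in controls and 22.2 to 42.3 in saline mice (1.05 ± 0.28, edgeR adjusted p = 0.00771). The 8 became 2 with the 10 libraries alone, 3 without control mouse 3, 4 without saline mouse 1 or control mouse 5, and 5 without control mouse 1, and the 2 calls became 0 without control mouse 5. The clock gene Per1, which also responds to glucocorticoids, passed by adjusted p alone (0.78 ± 0.25, edgeR adjusted p = 0.0308), but not without any one of saline mice 1 and 2 and controls 3 to 5. No gene of the 21 on the circadian list was called, and Nr1d1 (0.32 ± 0.12) and Tef (0.37 ± 0.21) did not pass, at edgeR adjusted p = 0.0738 and 0.239.

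Sesn2, a sensor of nutrient stress, was the 1 called gene of 27 in the unfolded protein and integrated stress list, at 5.15 to 9.72 CPM in controls and 9.66 to 38.1 in saline mice (1.63 ± 0.26, edgeR adjusted p = 4.43e-05). Over all genes 0.972% were called higher. Hspa1b, an inducible Hsp70 with a near-identical copy in Hspa1a, was at 35.1 CPM in saline mouse 1 and 1.34 to 2.99 in the other 9 mice, and its log2 fold change of 2.14 became 0.20 without that mouse (edgeR adjusted p = 0.832). Cryab, a small heat shock protein of muscle, was at 84.5 to 194 CPM in controls and 27.5 to 92.4 in saline mice (-1.30 ± 0.37, edgeR adjusted p = 0.0125), and gave -0.58 under the muscle covariate (adjusted p = 0.453).

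On a high-fat diet the study has a further pair of saline and uninjected controls, made of other mice. Saline mouse 4 there had a shallow library of 849126 counts, with a floor of 3.01 CPM. The other saline libraries there had 5386230 to 7284129 counts and the controls 7503112 to 13461733. That shallow library gave the highest macrophage sum below, and the calls and signs on high-fat diet were not refitted without it. Of the 129 genes higher on chow, 96 (74.4%) had the same sign there against 45.9% of all tested genes, and 21 were called higher (2.87% of all genes were). Col3a1 (2.49), Col1a1 (2.497), Col6a3 (2.00), Gsn (1.63), B3galt2 (1.58) and Cyp2e1 (1.69) were called higher on both diets. The saline libraries on high-fat diet also stood apart in markers of other tissues. Their epididymis list summed to 13.04 to 32.7 CPM against 1.07 to 2.62 in the uninjected controls there, their liver list to 112 to 333 against 11.1 to 33.5, and their macrophage list to 588 to 1333 against 202 to 468. The part of these in the shared calls was not tested. Of the 349 lower on chow, 70 (20.1%) had the same sign, against 54.1% of all tested genes. Lars2, at -2.36, was the 1 called lower (0.113% of all genes were), whereas 36 were called higher (2.87% of all genes). Muscle reversed: Ckm was higher in the saline mice on high-fat diet by 3.44 (edgeR adjusted p = 0.0464). That rested on 1 library, since the muscle sum was 3585 CPM in saline mouse 3 on high-fat diet, 106 to 427 CPM in the other 4, and 86.6 to 443 CPM in the controls there.

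The difference of the cohort difference between diets passed an edgeR adjusted p under 0.05 for 653 genes above 0 (4.92%) and 613 below (4.62%). Among them were 249 of the 349 and 42 of the 129. For Ptgds the difference on high-fat diet was -0.06, for Zbed6 -0.10 and for Svep1 0.05, all with an interaction past the threshold (adjusted p = 4.5e-05, 0.011 and 0.0053). The 653 became 344 without saline mouse 3 on high-fat diet, and the 613 became 406 without control mouse 3 on chow.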

How the data were processed

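RNA of brown adipose tissue was sequenced after poly(A) selection. The authors aligned reads with STAR to mm9 and made exon counts per gene with iRNA-seq, and they deposited raw counts of 40 libraries in 8 groups of 5 (no other sample column is in the table). Per the labels, HOMER was used too. Versions and strand are not given in the sources used here.

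All 40 libraries were fitted with edgeR 4.0.16 (R 4.3.3, limma 3.58.1), with TMM factors, filterByExpr, the quasi-likelihood test and Benjamini-Hochberg adjustment over 13277 genes. A gene was called at adjusted p under 0.05 and a log2 fold change past 1, a difference being saline minus control. On simulated data of this comparison (13277 genes), recovery was counted by edgeR adjusted p under 0.05 and the right direction, without the fold threshold. By that count 96% of genes changed by 1 and 99% of genes changed by 2 on the log2 scale were recovered. By adjusted p alone, 7 unchanged genes passed. The changed genes had a mean of 5 CPM or more, and genes were simulated independently of each other. DESeq2 1.42.0, other scalings, filters, sample sets and single mice left out were alternatives.

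Genes were named by rule: the 15 most abundant per kb, the 14 largest called changes in each direction without overlap at a mean of 5 CPM or more in the higher group, of each list up to 3 called members in each direction with the highest CPM (the 2 most abundant where none was called), and Gpr3, Ucp1, Dio2, Elovl3, Adrb3, Alb, Lcn8, Acta1 and Nnt as checks. Others were chosen after their values were seen: Cidea, Cox7a1, Esrrg, Fabp3, Lars2, Ago3, Gsn, Fos, Junb, Egr2, Myh4, Foxo1, Pdk4, Adrb1, Adra1a, Insig1, Ndufa9, Cox5b, Uqcrc1, Per1, Zc3h11a and Hspa1a. The comparison and the gene lists were chosen with earlier results of these data known. Same-numbered mice of the 2 groups did not deviate together (r from -0.45 to 0.07). Results of some genes that the rule names are not reported here.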

Additional observations from a re-analysis of the deposited data

Results flagged for a closer look

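In 15 of 186 groups of 5 mice, 1 mouse stood apart from the other 4 by more than 0.71 of the group's range. Independent values with a normal spread pass that cut-off in about 1 in 20 groups. CPM values need not be normal, all 15 were the highest of their group, and the genes share the same 10 mice. The count of 15 therefore cannot be judged against that rate. Saline mouse 1 was the high one for Hspa1b (35.1 CPM), Irs2 (257 CPM), Dio2 (85.4 CPM), Ankrd23 (35.1 CPM) and Vgll2 (0.432 CPM). Saline mouse 5 was high for Atp5b (9115 CPM), Cyp2e1 (399 CPM), Fam131c (2.38 CPM) and Cidea (2656 CPM). Saline mouse 2 was high for Car3 (9093 CPM) and saline mouse 3 for Fos (59.0 CPM). Among controls, mouse 3 was high for Lars2 (6658 CPM) and Thrsp (5338 CPM), mouse 1 for Zfp36 (48.0 CPM) and mouse 4 for Col1a1 (302 CPM).

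For 43 of 93 genes the cohort difference changed with diet (edgeR interaction, adjusted p under 0.05 over all genes). Over all tested genes 4.92% passed above 0 and 4.62% below. Many of the 93 were named for their chow difference, which is part of the interaction, so that count is favoured by the choice. Values are the difference on high-fat diet minus that on chow, on the log2 scale. Genes of the muscle list or known from muscle had positive values: Vgll2 9.92, Ckmt2 6.96, Ttn 6.24, Ckm 6.22, Acta1 6.05, Tnnt3 5.99, Myh4 4.89, Rpl3l 4.30 and Kcna7 4.00. The muscle RNA on high-fat diet lay mostly in 1 saline mouse, as given above.

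Other genes lower on chow that gave positive values were Ptgds (4.35), Atp5g1 (3.94), Fndc5 (3.36), Ramp1 (3.29), Elovl3 (3.18), Slc38a3 (3.15), Slc16a4 (2.27), Zbed6 (2.19), Lnpep (1.97), Ankrd23 (1.93), Casq2 (1.87), Aldoc (1.71), Nnt (1.56), Sqle (1.36), Ago3 (1.26), Cox5b (0.55) and Fth1 (0.47). The collagens Col3a1 (1.42) and Col1a1 (1.30) were higher on chow and differed more on high-fat diet.

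Genes whose rise on chow was smaller, absent or of opposite sign on high-fat diet were Egr1 (-4.14), Gadd45g (-2.63), Svep1 (-2.07), Sesn2 (-1.82), Hcar1 (-1.61), Adcy5 (-1.60), G0s2 (-1.58), Zfp36l2 (-1.52), Btg2 (-1.51), Sctr (-1.46), Net1 (-1.39), Zfp36 (-1.10), Adrb1 (-1.07) and Vwf (-0.92). On high-fat diet itself the log2 fold change was below 0 for Egr1 (-0.94), Gadd45g (-0.79), Btg2 (-0.48), G0s2 (-0.25), Sesn2 (-0.19) and Adrb1 (-0.19). It stayed above 0 for the others. Ucp1, which did not pass on either diet, gave -1.18.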

How the results depend on the processing

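The 129 higher calls lay between 120 and 146 and the 349 lower calls between 289 and 381 when 1 mouse was left out. The lower calls became 149 with at least 10 counts required in each of the 10 chow libraries, and 145 of these were among the 349. That filter left 11467 tested genes and by construction drops genes with few counts in saline mice. With the muscle score as a covariate the lower calls became 89. By adjusted p alone, the 884 higher genes became 467 with the 10 libraries alone and 390 with the covariate. The 1137 lower genes became 489, 351 and, without saline mice 2 and 3, 662. Those last 2 alternatives were chosen after seeing the data. Leaving out 1 mouse, the counts by adjusted p alone were 625 to 941 higher and 763 to 1059 lower. The interaction counts of 653 and 613 were then 344 to 747 and 406 to 646.

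With the replicate number as a block, 120 genes were higher and 327 lower (857 and 1103 by adjusted p alone), and the interaction gave 669 and 600. The numbers pair no mice. Of 1528 checks on 77 named genes past the threshold, 1385 kept direction and threshold, 138 kept direction only and 5 turned. Leaving out 1 mouse, Scd1 ran from -0.35 to 0.27 (0.05 without saline mouse 2, 0.27 without control mouse 2) and Dio2 from -0.58 (without saline mouse 1) to 0.58. Under the covariate, built from muscle genes, they turned for Ttn (0.31), Ckm (0.78), Tnnt3 (0.97), Ckmt2 (0.031), Rpl3l (0.0011), Acta1 (0.83) and Myh4 (1.43). Where no construction shows it, the cause was not tested. Counts near 3 limit Gpr3, Alb, Vgll2 and Atp5g1.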

Other observations

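Immune and housekeeping lists showed few calls. None of 14 lymphocyte (median -0.39, 2 above 0), 12 antigen presentation, 37 proteasome or 30 interferon genes was called in edgeR, and none passed by adjusted p alone. Of 13 tested acute phase and inflammation genes 1 was called lower (2.63% over all genes), with a median of 0.44. By adjusted p alone 1 was higher and 2 lower, against 6.66% and 8.56% over all genes. That list summed to 755 to 930 CPM in controls and 772 to 1787 CPM in saline mice. In the mitochondrial ribosome list 17 of 74 genes were lower by adjusted p alone, against 8.56% over all genes, with a median of -0.24 and no call. The 17 became 2 with the 10 libraries alone, with the muscle covariate or without saline mice 2 and 3, 5 without control mouse 3, 6 without saline mouse 2, and 7 without saline mouse 3 or control mouse 4. In the cytosolic ribosome list 3 of 74 were lower and 1 higher by adjusted p alone (8.56% and 6.66% over all genes), with a median of -0.06. The cell cycle list held 1 called gene of 30, which was lower (2.63% over all genes), with a median of -0.49 and 3 members above 0.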
